A study of Mus musculus with 6 samples.

Results

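Spleen RNA of untreated diabetic NOD mice was compared with that of untreated mice of the same strain that had stayed non-diabetic. The comparison uses 4 of the 6 arrays of the series, 2 for each group, and all 45037 probe sets that are not Affymetrix controls, of the 45101 on the array. Both groups were female NOD mice without any drug, and they differed in whether overt diabetes had developed. The labels give an age of 32 to 36 weeks for every group. The study's methods describe the diabetic mice as killed younger than the drug-treated mice, and its results call the untreated non-diabetic mice age-matched. Whether the 2 untreated groups differed in age is therefore not settled, and if they did, age and diabetes cannot be told apart. The labels name splenocytes and the methods name RNA of individual spleens. The other group had received trichostatin A (TSA), a histone deacetylase inhibitor, at 500 µg/kg weekly between weeks 18 and 24, and it entered the fit only through the shared estimate of the spread. RNA of 3 to 5 mice was pooled in each group by the series text (the methods give a slightly larger pool), and the 2 arrays of a group are separate labelings of that 1 pool. The p-values below therefore describe the spread between labelings and not between mice.

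The NOD mouse develops autoimmune diabetes in which T cells destroy the insulin-producing beta cells of the pancreatic islets. The spleen holds the lymphocytes of the white pulp and the macrophages of the red pulp, which clear old red cells and recycle their iron. In mice the red pulp also remains a site where red cells, neutrophils and platelets are made, and smooth muscle and collagen form the capsule and trabeculae. In RNA of a whole organ, fewer cells of a type and less RNA per cell cannot be told apart.

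The defining markers of spleen were present in both groups. On the log2 scale used throughout, Ms4a1, the B cell surface protein CD20, read 11.52 and 11.47 on the non-diabetic arrays and 11.46 and 11.36 on the diabetic arrays, and the B cell receptor subunit Cd79b read 11.11, 10.95, 11.02 and 11.09 in the same order. The T cell receptor subunit Cd3g read 8.39, 8.47, 7.98 and 8.48. The red pulp macrophage regulator Spic read 7.43, 7.34, 7.71 and 8.48. Pancreatic acinar markers were also present, on the diabetic arrays. Clps, the colipase secreted with pancreatic lipase, read 4.29 and 4.64 in non-diabetic mice and 12.47 and 12.28 in diabetic mice. Markers of the other pancreatic cells showed no such difference: the islet hormone Gcg (glucagon) read 2.62, 2.52, 2.47 and 2.45, and the duct keratin Krt19 read 3.52, 3.32, 3.33 and 3.37.

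The 2 diabetic arrays resembled each other less than the 2 non-diabetic arrays did. The SD of the difference between duplicates over all probe sets was 0.25 for the non-diabetic and 0.52 for the diabetic pair, and Pearson's r was 0.993 and 0.973. The level of the 3′ probe set of beta-actin exceeded that of the 5′ probe set by 2.35 and 2.05 on the non-diabetic arrays, by 2.42 on diabetic replicate 1 and by 3.32 on diabetic replicate 2, and for Gapdh the gaps were 2.67, 1.91, 1.82 and 3.19. Diabetic replicate 2 had the widest gap for both transcripts among these 4 arrays, so most genes are given below with the value of each array. The TSA-treated arrays, which enter the shared estimate of the spread and so each SE and p, had wider gaps still. These were 3.45 and 5.61 for beta-actin and 3.85 and 4.58 for Gapdh.

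At an adjusted p under 0.05 (limma), 39 probe sets rose and 1 fell in diabetic mice, which is 0.0888% of those tested. Of these, 37 belong to the lists of exocrine pancreas genes and rose by 3.26 to 8.51. Of the 20 digestive enzymes that the platform annotation names, 15 passed, among them Cpa1 and Cpb1, the pancreatic carboxypeptidases, with differences of 6.98 ± 0.27 (SE) and 7.53 ± 0.17. The probe set 1433431_at has no gene in that annotation, but the study's own lists name it Pnlip, pancreatic lipase, and it was counted with the exocrine lists. It rose by 7.81 ± 0.32, from 4.96 and 4.31 to 12.24 and 12.64 (adjusted p = 0.0009), and its call held each time an array was left out. Of 31 other acinar genes, 7 passed: Sycn, Zg16 and Cuzd1 of the zymogen granule, the trypsin inhibitor Spink1, the secreted proteins Reg1 and Dmbt1, and the pancreatic disulfide isomerase Pdia2. Dmbt1 read 3.82 and 3.78 in non-diabetic and 8.69 and 8.94 in diabetic mice, and its 2 diabetic arrays lay 0.25 apart against a difference of 5.02. Cuzd1 read 4.30 and 3.92 and then 7.19 and 7.58, and Pdia2 read 4.68, 3.80, 8.32 and 8.35. Those 2 calls and those of the dimmer probe sets of Sycn (1451228_a_at) and Zg16 (1428358_at) were lost when single arrays were left out, with adjusted p up to 0.282 for Pdia2 and 0.231 for Cuzd1. The total was 24 when either non-diabetic array was left out and 23 when diabetic replicate 2 was, and it came to 243, of which 205 were lower, when diabetic replicate 1 was left out.

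Outside these lists 3 probe sets of 44951 passed (0.00667%), namely 2 that rose and have no gene name in the annotation used, and 1 that fell. 1454623_at rose by 4.84 ± 0.43, from 3.85 and 4.01 to 8.48 and 9.06 (adjusted p = 0.0376). 1430027_at rose by 2.34 ± 0.17, from 3.11 and 3.32 to 5.50 and 5.62 (adjusted p = 0.015). Both had a dim signal in non-diabetic mice and a much smaller gap between the diabetic arrays than between the groups. The number of calls outside the lists was 0 in limma when either non-diabetic array or diabetic replicate 2 was left out (734 to 1307 of all probe sets at an unadjusted p under 0.05), and 209 (205 of them lower) when diabetic replicate 1 was. The call of 1454623_at was lost without any 1 of the 4 arrays (adjusted p from 0.0513 to 0.589), and that of 1430027_at held only without diabetic replicate 1 (0.0413).

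The 1 probe set that fell is 1427503_at of Ighg3, the constant region of the IgG3 heavy chain, an antibody class made by B cells and plasma cells. It read 10.25 and 10.12 in non-diabetic mice and 7.68 and 8.0 in diabetic mice, a difference of -2.35 ± 0.18 (SE; 95% interval -2.79 to -1.91; adjusted p = 0.0172). Both diabetic arrays lay at least 2.12 below either non-diabetic array. The call was lost without non-diabetic replicate 1 (adjusted p = 0.463), without non-diabetic replicate 2 (0.372) and without diabetic replicate 2 (0.105), and over all alternatives the adjusted p ran from 3.53e-06 to 0.709. The other 3 probe sets assigned to Ighg3 read between 2.32 and 4.52 on these arrays, and their differences were 0.06, 0.06 and 0.26. Of the 15 other genes of the immunoglobulin and plasma cell list, 0 passed the adjusted test in limma and 1 had an unadjusted p under 0.05. Among them 3 were higher and 5 lower without overlap of the groups, and the median difference was -0.07. Xbp1, the transcription factor of antibody-secreting cells, read 10.75 and 10.80 and then 10.48 and 10.36, and Tnfrsf17, the plasma cell survival receptor BCMA, read 4.54, 4.38, 4.78 and 4.76. The heavy chain gene Ighm differed by -0.10 and the joining chain gene Jchain by 0.02, values given for comparison after they were seen.

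**Figure D1:**
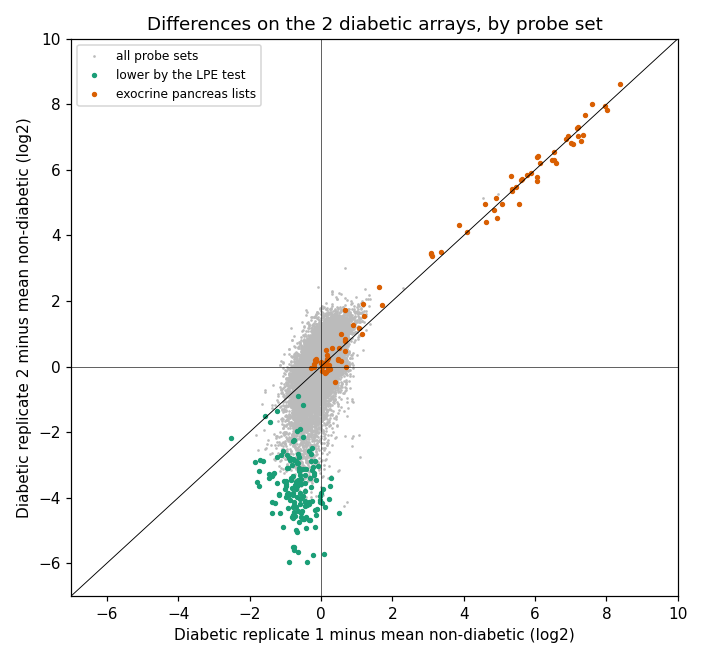
Each point is 1 probe set. The x axis gives its level on diabetic replicate 1 and the y axis its level on diabetic replicate 2, each minus the mean of the 2 non-diabetic arrays, in log2 units. Exocrine pancreas genes (orange) lie along the diagonal where both diabetic arrays agree, and the 156 probe sets that the local pooled error (LPE) test called lower (green) lie mostly far below it, lower on replicate 2 than on replicate 1.

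How far the 2 diabetic arrays agreed was counted without a model. A probe set was counted on an array where it lay at least 1 beyond both non-diabetic arrays. Outside the exocrine lists, 38 probe sets were higher on both diabetic arrays, 2 on replicate 1 only and 994 on replicate 2 only. In the other direction, 55 were lower on both, 15 on replicate 1 only and 1548 on replicate 2 only, and 0 went opposite ways. Most 2-fold differences from the non-diabetic arrays were thus seen on diabetic replicate 2 alone. By group means, 293 probe sets were at least 1 higher and 862 at least 1 lower without overlap, which is 0.651% and 1.91% of all. The sum of 1155 became 1777 with non-diabetic replicate 1 left out, 3488 with diabetic replicate 1 left out and 259 with diabetic replicate 2 left out. Where the arrays of each group also had to lie closer together than 33.3% of the difference, 85 higher (0.189%) and 37 lower (0.0822%) probe sets were left, and outside the exocrine lists 38 (0.0845%) and 37 (0.0823%).

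The probe sets lower on replicate 2 alone included several that disagreed with other probe sets of the same gene. These genes were chosen after their values were seen. For Malat1, a long nuclear RNA, 1438403_s_at read 9.78 and 11.33 in non-diabetic mice, 9.65 on diabetic replicate 1 and 4.61 on replicate 2. Its probe set 1429060_at read 9.76, 9.99, 9.91 and 9.81. Of the 7 Malat1 probe sets, 5 were at least 1 lower on replicate 2 and 0 on replicate 1. For the kinase gene Wnk1, 1436746_at read 9.10, 10.12, 9.38 and 3.85, while 1433676_at read 11.07, 11.04, 11.02 and 11.39. For Zeb2, a transcription factor of myeloid and other cells, 1422748_at read 8.34, 8.93, 8.03 and 3.88, while 1456389_at read 6.33, 5.85, 6.37 and 7.17. For Ets1, a lymphocyte transcription factor, 1422028_a_at read 9.62, 10.03, 8.46 and 5.70, while 1426725_s_at read 11.40, 11.26, 10.99 and 11.05. Unlike the others, 1422028_a_at was at least 1 lower on both diabetic arrays, though more so on replicate 2. The LPE test, which takes its error from probe sets of like level and which the methods name, called 156 probe sets lower (0.346%), and 137 of them were at least 1 lower on diabetic replicate 2 only. The wider 3′ to 5′ gap of this array moves with these differences, and its part in them was not tested.

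**Figure D2:**
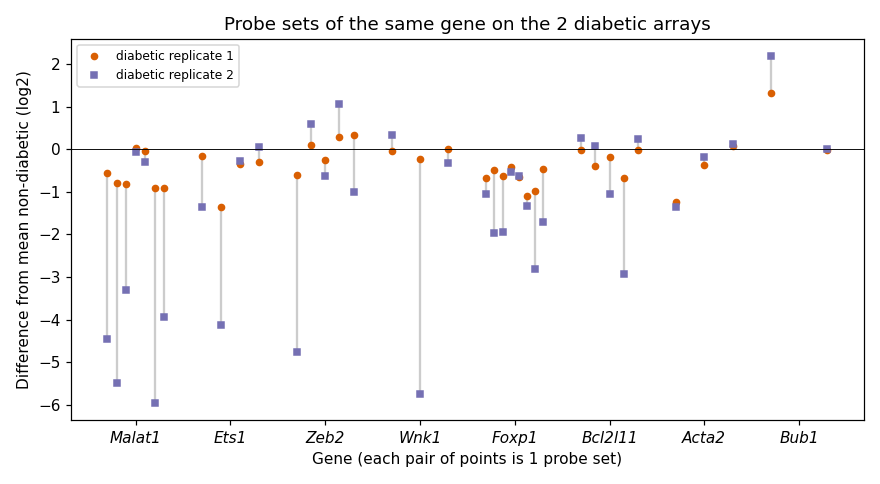
Each pair of points joined by a line is 1 probe set. The y axis gives its difference from the mean of the 2 non-diabetic arrays (log2) on diabetic replicate 1 (circles) and replicate 2 (squares). On replicate 2 the probe sets of Malat1, Wnk1 and Zeb2 spread widely down to far below 0. On that array those of Wnk1 reach 0.33 and those of Zeb2 1.08 above 0. All 8 probe sets of Foxp1 lie below 0 on both arrays, most of them further below on replicate 2.

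Gene groups were then described by 1 probe set a gene, over 36 lists with 800 measured genes. Among all 18193 genes, 25.5% were higher and 17.5% lower in diabetic mice without overlap of the groups, 4.33% and 2.41% had an unadjusted limma p under 0.05 in each direction, and the median difference was 0.04. Apart from the exocrine lists and Ighg3, 0 of 748 list members passed the adjusted test in limma. The 23 genes that passed among all 18193 (0.126%) were those exocrine genes and Ighg3, so this 0 was fixed by leaving them out. Of the 748 members, 82 were higher and 35 lower at an unadjusted p under 0.05. The LPE test called 7 of them higher (Bub1, Tfrc, Hemgn, Ctsg, Gzma, S100a9 and Car2) and 4 lower (Acta2, Ebf1, Gpx3 and Bcl2l11). The counts below are descriptions to be read against these shares. The acinar transcripts moved with the diabetic group throughout, with a mean level over the 20 digestive enzymes of 4.77 and 4.68 on the non-diabetic and 9.81 and 9.83 on the diabetic arrays, and their part in the differences of other lists was not tested.

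**Figure D3:**
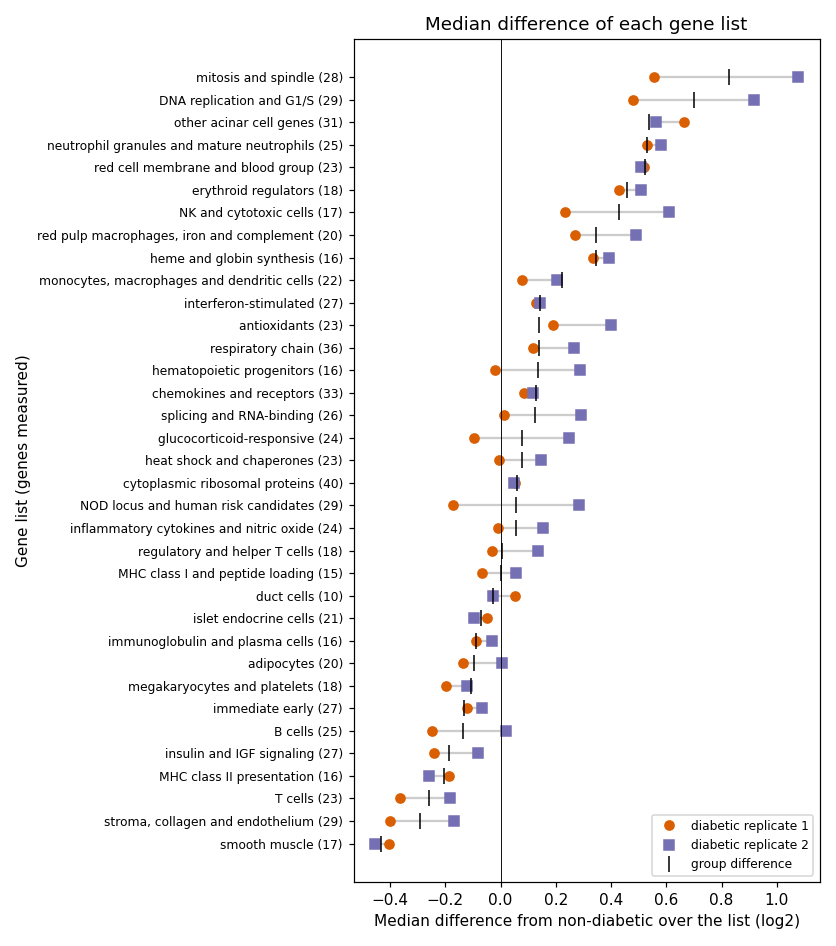
Median difference of each gene list from the non-diabetic mean (x axis, log2) on diabetic replicate 1 (circles), on diabetic replicate 2 (squares) and for the group means (black ticks). The number of genes measured follows each list's name, and the digestive enzymes, at 5.73, are left out. Cell cycle, neutrophil and red cell lists lie to the right of 0 on both arrays, and smooth muscle, stroma, T cells and MHC class II to the left on both.

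The cell cycle lists had the highest medians outside the pancreas by group means, though on replicate 1 alone DNA replication (0.48) lay below the neutrophil (0.53) and red cell membrane (0.52) lists. Of 28 mitosis and spindle genes, 26 were higher in diabetic mice without overlap and 0 lower, 15 had an unadjusted p under 0.05, and the median difference was 0.83, with 0.56 on replicate 1 and 1.08 on replicate 2. All 28 lay above the non-diabetic mean on replicate 1, where 52.6% of all genes did. Bub1, a kinase of the spindle checkpoint, read 6.55 and 6.19 in non-diabetic mice and 7.70 and 8.56 in diabetic mice, a difference of 1.76 ± 0.32 (adjusted p = 0.576, LPE adjusted p = 0.007). Both diabetic arrays lay above both non-diabetic arrays by more than 1. Anln, the contractile ring protein anillin, read 6.64, 6.64, 7.68 and 8.54. Kif11, the motor that separates the spindle poles, read 6.02, 6.2, 7.26 and 7.79, and Ect2, the exchange factor that starts cytokinesis, read 7.06, 6.69, 7.93 and 8.38. For each of these genes replicate 2 was the higher diabetic array. Bub1 has a further probe set near the bottom of the scale with a difference of 0.00, and the 3 probe sets of Kif11 differed by 0.34 to 1.41. The other probe set of Anln differed by 0.19. The groups overlapped for Plk1 and Cdc20, which differed by 0.11 and -0.07.

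Genes of DNA replication lay higher in the same way. Of 29 genes, 27 were higher without overlap, 1 (Tyms, thymidylate synthase, at -0.40) was lower, and 17 had an unadjusted p under 0.05, all of them higher. The median was 0.70, with 0.48 and 0.92 on the 2 diabetic arrays. Ccne2, the cyclin E2 of S phase entry, read 5.64 and 5.82 and then 6.84 and 7.50, a difference of 1.44 ± 0.25 (adjusted p = 0.541). Rfc4, a subunit of the clamp loader, read 7.15, 6.95, 7.97 and 8.80, and its other probe set read 6.50, 6.79, 7.79 and 8.02. Gins1 of the replicative helicase read 6.78, 6.63, 7.57 and 8.23, and Orc1 of the origin recognition complex read 5.28, 5.48, 6.18 and 6.95. The other probe sets of Gins1 and Orc1 differed by 0.24 and -0.31. The 6 subunits of the MCM helicase ring, picked as a complex after their values were seen, were higher by 0.33 to 0.75, with 0.28 to 0.45 on replicate 1 and 0.36 to 1.06 on replicate 2.

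Further cell cycle genes stood among the 15 largest positive differences of probe sets that name 1 gene outside the exocrine lists and whose arrays agreed within 33.3% of the difference. None of these 15 passed the adjusted test in limma. Ncapg, a condensin subunit, had a difference of 1.48 ± 0.22, from 6.45 and 6.22 to 7.59 and 8.03 (adjusted p = 0.381). Cdc25c, the phosphatase that activates Cdk1, read 4.64, 4.32, 5.63 and 5.87. Sgo2a, a protector of centromere cohesion, read 6.03, 5.88, 7.03 and 7.42, and Cenpk of the inner kinetochore read 7.90, 7.77, 8.91 and 9.20. Chek1, the checkpoint kinase, read 5.89 and 5.90 and then 6.98 and 7.25. Cenpk and Chek1 have other probe sets with differences down to 0.07 and 0.00. The other probe sets of Ncapg and Cdc25c differed by 0.385 and 0.390.

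The region before the transcription start of these genes is shown because the mitosis list was higher as a group and its promoters are known for CCAAT boxes, bound by NF-Y, and for the cell cycle homology region, whose core is TTTGAA. Windows of 250 bases before each RefSeq start (GRCm38.p6) were searched on both strands. CCAAT was in 23 of 26 windows of 24 mitosis genes (88.5%) and in 16 of 27 windows of 24 replication genes (59.3%), against 33.8% of 32851 windows of all genes. TTTGAA was in 10 of the 26 mitosis windows (38.5%) and in 2 of the 27 replication windows (7.41%), against 16.0% of all. A match describes the letters and is no evidence of binding. The 150 bases before the start of 4 of these genes are printed 5′ to 3′ on the gene's strand, with both motifs, on either strand, in capitals. They are Bub1 at chr2:127831860-127832009 (minus strand), Kif11 at chr19:37376232-37376381 (plus), Cdk1, the mitotic cyclin-dependent kinase, at chr10:69352913-69353062 (minus) and Ect2 at chr3:27153879-27154028 (minus).
Bub1: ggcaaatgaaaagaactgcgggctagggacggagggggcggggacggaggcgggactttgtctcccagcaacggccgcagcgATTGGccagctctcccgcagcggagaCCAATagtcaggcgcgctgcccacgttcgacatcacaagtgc
Kif11: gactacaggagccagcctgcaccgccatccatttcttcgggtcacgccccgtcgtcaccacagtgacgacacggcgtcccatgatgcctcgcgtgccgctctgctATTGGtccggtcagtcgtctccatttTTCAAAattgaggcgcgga
Cdk1: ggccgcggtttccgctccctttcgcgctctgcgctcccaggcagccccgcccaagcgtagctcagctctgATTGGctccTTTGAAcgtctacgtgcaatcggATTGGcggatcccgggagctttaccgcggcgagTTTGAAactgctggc
Ect2: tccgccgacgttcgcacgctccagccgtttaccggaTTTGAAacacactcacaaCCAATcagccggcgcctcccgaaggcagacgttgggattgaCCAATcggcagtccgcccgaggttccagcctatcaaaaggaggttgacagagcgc

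Red cell genes lay higher on both diabetic arrays. Among 18 erythroid regulators the median difference was 0.46, with 10 higher and 1 lower without overlap, and single genes differed by -0.68 to 1.05. Tal1, a transcription factor of early red cell development, read 9.43 and 9.42 in non-diabetic mice and 10.31 and 10.64 in diabetic mice, a difference of 1.05 ± 0.18 (adjusted p = 0.528). Klf1, the activator of adult globin genes, read 9.83, 9.87, 10.56 and 10.78. Hemgn, a nuclear protein of erythroid cells, read 10.84, 10.64, 11.51 and 11.77, and LPE called it at an adjusted p of 0.0488. In all of these the groups were separate, as the choice of genes required, and the diabetic arrays lay within 0.33 of each other. Gata1, the erythroid master regulator, lay 0.26 higher on replicate 1 and 0.78 lower on replicate 2, and was looked up after its value was seen.

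Of 23 red cell membrane and blood group genes, 17 were higher and 1 lower without overlap, and the median was 0.52 on replicate 1 and 0.51 on replicate 2. Epb42, the membrane skeleton protein 4.2, read 6.83 and 6.45 and then 7.90 and 8.18, a difference of 1.40 ± 0.20 (adjusted p = 0.364). Its other probe set differed by 0.16. Car1, the red cell carbonic anhydrase I, read 10.37, 10.24, 10.93 and 11.57. The adhesion molecule Icam4 of erythroblasts read 6.48, 6.10, 7.14 and 7.08, and the mouse erythroblast claudin Cldn13 read 9.26, 9.03, 10.17 and 9.99. Slc2a1, a glucose transporter, was the gene that was lower, at -0.35. Of 16 genes of heme and globin synthesis, 12 were higher and 0 lower, with a median of 0.34. Tfrc, the transferrin receptor through which iron enters erythroblasts, read 10.91, 11.07, 11.80 and 12.09 (LPE adjusted p = 0.007), and the mitochondrial transporter Abcb10 read 8.36, 8.54, 9.15 and 9.29. The 3 probe sets of Abcb10 differed by -0.20 to 0.77. The heme pathway enzymes Uros and Urod differed by 0.72 ± 0.28 and 0.53 ± 0.16. Alas2, the first enzyme of heme synthesis in red cells, read 11.12, 11.09, 11.24 and 10.96, so that its groups overlapped.

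The GATA motif, searched as AGATAA or TGATAA on both strands, was in 10 of 22 windows of erythroid regulators (45.5%), 6 of 15 of red cell membrane genes (40.0%) and 5 of 15 of heme and globin genes (33.3%), against 16.6% of all windows and 2 of 26 of the mitosis list (7.69%). Several windows belong to 1 gene, and the 22 windows come from 16 genes. The 150 bases before the start are printed for a regulator and a membrane gene that lay higher, Klf1 at chr8:84901832-84901981 (plus strand) and Ermap, the Scianna blood group protein, at chr4:119189996-119190145 (minus strand), with the motif in capitals.
Klf1: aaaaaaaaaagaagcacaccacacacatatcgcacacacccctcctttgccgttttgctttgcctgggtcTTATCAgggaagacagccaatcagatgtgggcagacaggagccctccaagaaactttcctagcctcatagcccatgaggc
Ermap: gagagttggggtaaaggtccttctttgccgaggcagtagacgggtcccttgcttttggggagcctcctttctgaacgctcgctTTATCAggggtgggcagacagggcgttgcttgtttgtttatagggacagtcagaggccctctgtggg

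Neutrophil genes lay higher as well. Of 25 measured, 18 were higher without overlap, 0 were lower, and the median was 0.53 on replicate 1 and 0.58 on replicate 2. Ctsg, the granule protease cathepsin G, read 7.62 and 7.39 in non-diabetic mice and 8.68 and 9.09 in diabetic mice, a difference of 1.39 ± 0.20 (adjusted p = 0.368, LPE adjusted p = 0.0457). Mmp8, the neutrophil collagenase, read 5.18, 5.19, 6.19 and 6.60, and Chil3, a chitinase-like lectin, read 9.81, 9.84, 10.68 and 10.93. Wfdc21, a small secreted protein, read 7.80, 7.62, 8.83 and 8.90. S100a9 and S100a8, the subunits of calprotectin, differed by 0.85 ± 0.17 and 0.64 ± 0.17, and their diabetic arrays lay above both non-diabetic arrays. The granule protein gene Ngp read 12.09, 12.19, 12.46 and 12.59. Ms4a3, a marker of granulocyte and monocyte precursors outside the list, was in the same set of 15, from 6.39 and 6.36 to 7.39 and 7.73 (adjusted p = 0.381).

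**Figure D4:**
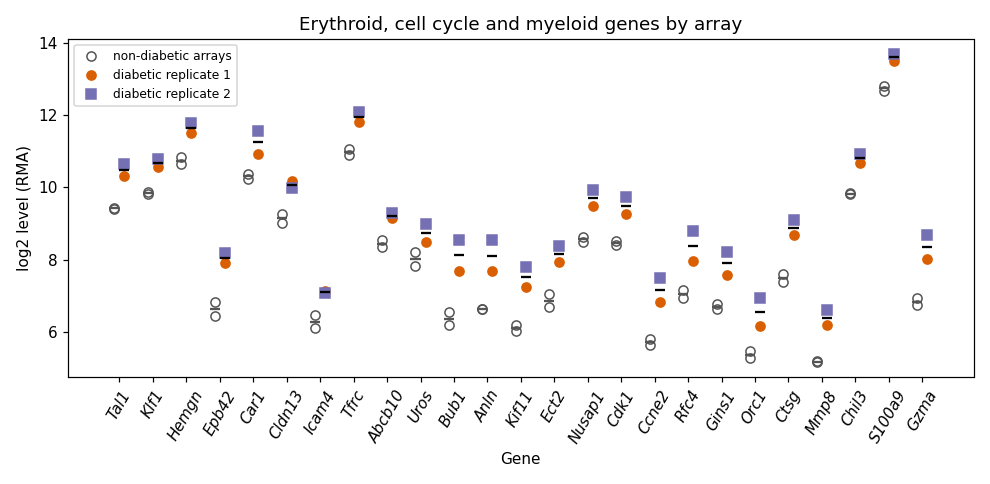
Log2 level of 25 erythroid, cell cycle, myeloid and cytotoxic genes (y axis) on the 2 non-diabetic arrays (open circles), diabetic replicate 1 (filled circles) and diabetic replicate 2 (squares), with a line at each group mean. Both diabetic points lie above both open circles for every gene shown, since most were chosen among genes whose groups did not overlap. Replicate 2 is the higher for most of them.

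Among red pulp macrophage genes, 12 of 20 were higher and 0 lower without overlap, with a median of 0.35. Single genes differed by -0.79 to 1.00, so the largest negative difference came from a gene whose groups overlapped. Cd5l, a secreted protein of these macrophages, read 7.97 and 7.72 and then 8.71 and 8.98, a difference of 1.00 ± 0.20 (adjusted p = 0.682). The mannose receptor Mrc1 read 8.47, 8.32, 8.73 and 9.54, and the biliverdin reductase Blvrb read 10.24, 9.92, 10.83 and 10.82. Of 22 genes of monocytes, macrophages and dendritic cells, 11 were higher and 2 lower, with a median of 0.22. Lyz2, myeloid lysozyme, read 12.00, 11.91, 12.46 and 12.90, and Adgre1, the F4/80 antigen, read 7.11, 6.99, 7.45 and 8.18. Mertk, among the 2 lower genes, had the largest difference of this list in size, at -0.96. It read 7.18, 7.29, 7.06 and 5.49, mostly a difference of replicate 2. Of 17 NK and cytotoxic genes, 11 were higher and 1 lower, with medians of 0.23 on replicate 1 and 0.61 on replicate 2. Gzma, the protease granzyme A, read 6.93, 6.76, 8.03 and 8.69, a difference of 1.51 ± 0.25 (adjusted p = 0.528, LPE adjusted p = 0.0382). Gzmb read 4.0, 4.01, 4.18 and 5.26, so that its difference came almost wholly from replicate 2.

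The same set of 15 also held genes of none of these lists. Both probe sets of Apol11b, an apolipoprotein L family member, were higher: 1440927_x_at read 7.22, 7.01, 8.37 and 8.71 (1.43 ± 0.19, adjusted p = 0.26) and 1457307_at read 7.46, 7.18, 8.53 and 8.68 (1.28 ± 0.18, adjusted p = 0.311). Vtn, the plasma and matrix protein vitronectin, read 3.37, 3.33, 4.74 and 4.66 (1.34 ± 0.15, adjusted p = 0.119), and its 2 probe sets differed by 0.41 and 1.34. Tarsl2, a threonyl-tRNA synthetase, read 4.63, 4.73, 5.78 and 6.12, and the F-box gene Fbxo30 read 5.10, 4.99, 6.11 and 6.44.

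Smooth muscle genes lay lower in diabetic mice. Of 17 measured, 12 were lower and 1 (Pln, phospholamban) higher without overlap, 5 had an unadjusted p under 0.05, all lower, and the median was -0.43, with -0.40 and -0.45 on the 2 diabetic arrays. Acta2, smooth muscle actin, read 10.47 and 10.32 in non-diabetic mice and 9.16 and 9.05 in diabetic mice, a difference of -1.29 ± 0.16 (adjusted p = 0.185, LPE adjusted p = 0.0455). Tagln, the actin-binding protein transgelin, read 8.25, 8.06, 6.92 and 6.82, a difference of -1.28 ± 0.22 (adjusted p = 0.541). The groups of both genes were separated by more than 1, and each group's arrays lay within 0.19 of each other. Tropomyosin 2 (Tpm2) read 9.56, 9.56, 8.50 and 8.90, and the smooth muscle myosin Myh11 read 5.28, 5.63, 4.47 and 4.97. The 2 dim probe sets of Acta2, near 3 on the log2 scale, differed by -0.26 and 0.11. The other probe set of Myh11 differed by 0.05, and the marker Cnn1, also near 3, by -0.11.

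Of 29 genes of stroma, collagen and endothelium, 15 were lower and 2 higher, and the median was -0.29. Dcn, the matrix proteoglycan decorin, read 8.80, 9.08, 8.08 and 7.80, a difference of -1.0 ± 0.49 (adjusted p = 0.825). Col6a1, a collagen VI chain, read 5.73, 5.88, 4.89 and 4.75, and Col1a2, a collagen I chain, read 8.62, 8.51, 7.79 and 7.51. Sparc, a collagen-binding protein, read 9.79, 9.79, 9.04 and 8.33. All 4 were lower on both diabetic arrays, and their choice required both arrays to lie on the same side. Other probe sets of Dcn, Col1a2 and Sparc had differences up to 0.15, -0.13 and -0.02. Fibulin 2 and the collagen V chain Col5a1 were the 2 genes on the higher side. Of 20 adipocyte genes, 6 were lower and 1 higher, and the median was -0.10: Adipoq, the hormone adiponectin, read 6.29, 6.23, 5.72 and 6.13, and Fabp4, the fatty acid carrier, read 7.38, 7.22, 6.43 and 6.87. The 4 probe sets of Fabp4 differed by -0.65 to 0.35. Of 18 megakaryocyte and platelet genes, 8 were lower and 4 higher, with a median of -0.11. The fibrinogen receptor subunits Itga2b and Itgb3 read 7.85, 7.55, 7.18 and 7.0, and 9.25, 9.01, 8.32 and 8.86.

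T cell genes lay somewhat lower. Of 23 measured, 12 were lower and 2 higher without overlap, 6 had an unadjusted p under 0.05, all lower, and the median was -0.26, with -0.36 on replicate 1 and -0.18 on replicate 2. Bcl11b, a transcription factor that maintains T cell identity, read 8.94 and 8.88 in non-diabetic mice and 8.04 and 7.84 in diabetic mice, a difference of -0.97 ± 0.16 (adjusted p = 0.528). Lef1, a factor of naive T cells, read 7.79, 7.61, 6.81 and 7.06, and Satb1, a chromatin organizer, read 9.26, 9.32, 8.37 and 8.93. Cd3e of the T cell receptor complex read 9.57, 9.38, 9.10 and 8.88, and Thy1 read 8.87, 8.65, 8.24 and 8.24. For Cd3g, given above, the groups overlapped. Cd28 and Gata3 were the 2 genes on the higher side.

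B cell genes were more often lower than higher, but their median had no common direction on the 2 arrays. Below the non-diabetic mean on both arrays lay 48.0% of them, and above it on both 12.0%. Over all genes these shares were 26.3% and 35.9%. Of 25 measured, 10 were lower and 3 higher, and the median was -0.25 on replicate 1 and 0.02 on replicate 2. Ebf1, a transcription factor that specifies B cells, read 9.13, 8.97, 8.10 and 6.35 (adjusted p = 0.751, LPE adjusted p = 0.0085), but only 2 of its 5 probe sets were lower on both diabetic arrays. Pax5, the factor that maintains B cells, read 6.22, 6.2, 5.76 and 4.99. Cd79a read 9.58, 9.75, 9.55 and 8.42, whereas its partner Cd79b differed by 0.02. Of 16 MHC class II genes, 8 were lower and 1 higher without overlap, with a median of -0.21. Cd74, the invariant chain, read 12.33, 12.36, 11.99 and 11.69, and H2-Oa, a modulator of peptide loading, read 9.20, 8.99, 8.69 and 8.70. H2-DMb2, another loading factor, read 10.07, 10.14, 9.77 and 8.04, mostly a difference of replicate 2. The MHC class I list had a median of 0.00, and its sign turned after repeated quantile normalization (-0.06).

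**Figure D5:**
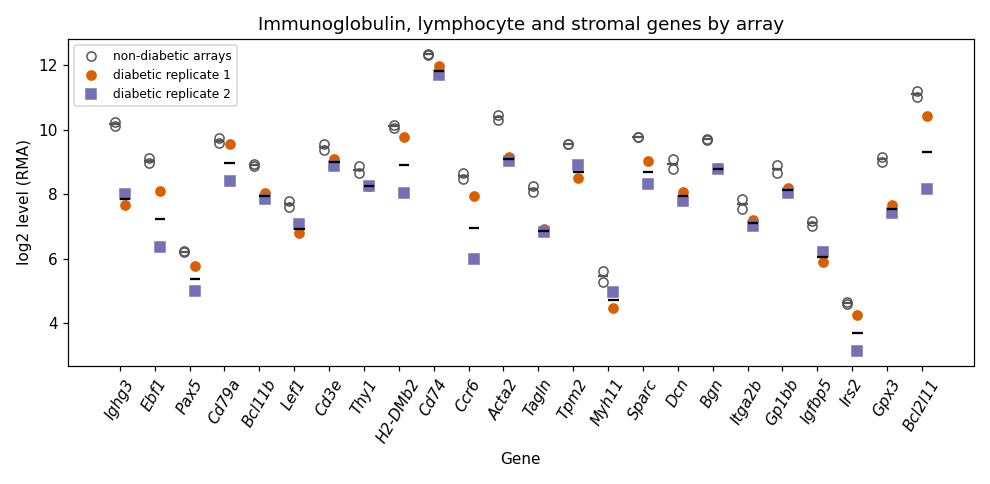
Log2 level of 24 immunoglobulin, lymphocyte, stromal and other genes (y axis) on the 2 non-diabetic arrays (open circles), diabetic replicate 1 (filled circles) and diabetic replicate 2 (squares), with a line at each group mean. For Ighg3, Acta2, Tagln and Gpx3 the diabetic arrays lie together below the open circles, while Ebf1, H2-DMb2, Ccr6 and Bcl2l11 are much lower on replicate 2 than on replicate 1.

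Among the 15 largest negative differences chosen in the same way, Ighg3 was the one that passed the adjusted test. Sbno2, a transcriptional coregulator of inflammation, came next: 1441840_x_at read 4.9 and 5.16 and then 3.22 and 2.95, a difference of -1.95 ± 0.20 (adjusted p = 0.0654), and its 4 probe sets differed by -1.95 to -0.32. Gpx3, the secreted glutathione peroxidase, read 9.16, 9.01, 7.65 and 7.40, a difference of -1.56 ± 0.75 (adjusted p = 0.823, LPE adjusted p = 0.0422). Its limma adjusted p was 0.209 when the untreated groups were fitted alone, without the TSA-treated arrays. Foxp1 encodes a transcription factor of B and T cells. Its probe set 1438802_at read 8.38, 8.35, 7.26 and 7.03, a difference of -1.22 ± 0.17 (adjusted p = 0.293). All 8 of its probe sets were lower on both diabetic arrays. Of these, 6 lay at least 1 below the non-diabetic mean on replicate 2 and 1 on replicate 1. Fscn1, the actin bundling protein fascin of mature dendritic cells, read 8.0, 7.87, 6.56 and 6.75, and the ligand Efnb2 of arterial endothelium read 6.91, 7.21, 6.01 and 5.69. The secreted protein gene Crispld2 read 7.63, 7.59, 6.52 and 6.33, the kinase gene Pkdcc read 6.27, 6.16, 5.14 and 4.83, and the protease gene Bace1 read 5.90, 5.54, 4.57 and 4.49. Rnf122, Rere, Grcc10 and Pqbp1 completed this set, with differences between -1.23 and -1.17. The 4 probe sets of Fscn1 differed by -1.28 to 0.08, and the 3 of Rere by -1.17 to 0.07.

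Lists tied to the disease and to inflammation showed smaller differences. Of 33 chemokine and receptor genes, 15 were higher and 2 lower, with a median of 0.13: the receptor Ccr1 read 5.59, 5.73, 6.25 and 6.95, and the interferon-induced chemokines Cxcl9 and Cxcl10 differed by 0.68 ± 0.25 and 0.61 ± 0.21, while the other probe set of Cxcl9 differed by -0.59. Ccr6, a receptor of B cells and memory T cells, read 8.46, 8.66, 7.93 and 5.98. Of 24 cytokine and nitric oxide genes, 8 were higher and 5 lower, and the median was -0.01 on replicate 1 and 0.15 on replicate 2. Il1b read 6.85, 6.64, 7.35 and 7.89, Il18 read 8.66, 8.86, 9.30 and 9.59, and Tgfb1 read 6.0, 6.32, 5.68 and 4.72. Interferon-stimulated genes had a median of 0.14, with 10 higher and 5 lower of 27. Of 27 insulin and IGF signaling genes, 12 were lower and 5 higher, with a median of -0.19. Igfbp5, which binds insulin-like growth factors, read 7.18, 7.02, 5.90 and 6.21, the insulin receptor substrate Irs2 read 4.66, 4.58, 4.24 and 3.13, and Igf1 was higher, at 7.09, 6.91, 7.42 and 8.31. Among 29 candidate genes at NOD and human risk loci, 7 were higher and 7 lower, and the median was -0.17 on replicate 1 and 0.28 on replicate 2. Ifih1, a sensor of viral RNA, read 6.67, 6.13, 6.88 and 7.35, and the proapoptotic gene Bcl2l11 read 11.20, 11.01, 10.44 and 8.16 on its brightest probe set, while the other 4 differed by -0.61 to 0.13.

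Broad housekeeping lists differed little. The median difference was 0.06 over 40 cytoplasmic ribosomal proteins, 0.12 over 26 splicing and RNA-binding genes and 0.14 over 36 respiratory chain genes, of which 20 were higher and 4 lower. Of 23 heat shock and chaperone genes, 7 were higher and 7 lower. Hspb1 read 7.66, 7.45, 6.83 and 6.54, and Hsp90aa1 read 11.14, 10.97, 11.65 and 11.82 on its brightest probe set, with its 5 probe sets between -1.34 and 0.68. Srpk3, a splicing factor kinase, read 10.44, 10.38, 9.37 and 9.35 (adjusted p = 0.357), and its other 3 probe sets differed by -0.17 to 0.02. The medians of hematopoietic progenitor, glucocorticoid-responsive, and regulatory and helper T cell genes were 0.14, 0.08 and 0.01, and each lay below 0 on replicate 1 and above 0 on replicate 2. Immediate early genes had a median of -0.13 and antioxidant genes of 0.14. The islet list had a median of -0.07, with 4 of 21 genes lower and 0 higher, and the duct list one of -0.03 with 3 of 10 higher and 1 lower.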

How the data were processed

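RNA was labeled by in vitro transcription and hybridized to a whole-genome Affymetrix GeneChip mouse array. The authors scaled the arrays by quantile normalization and summarized probes by the Robust Multi-array Average (RMA) method in S-Plus with S+Array Analyzer, and the deposited values are log2 levels. A group has 2 arrays of 1 RNA pool, and this number limits the precision. Signal near the array median (3.79 to 3.92 on the 4 arrays) compresses differences. Probe sets were named from the GEO platform table, with symbols updated to RefSeq GRCm38.p6: 34945 name 1 gene, 932 several and 9160 none, of which 1 was placed with the exocrine lists by its name in the study's supplementary lists. No filter was applied beyond dropping the 64 control probe sets.

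All 6 arrays were fitted in limma 3.58.1 (R 4.3.3) with a mean for each group, on 3 residual degrees of freedom plus a prior of 2.94, and p was adjusted by Benjamini-Hochberg over 45037 probe sets and called under 0.05. Differences are diabetic minus non-diabetic on the log2 scale, ± SE. A gene is represented by its brightest probe set (mean of all 6 arrays) that names no other gene. The members and 36 gene lists (934 genes, 800 measured) were chosen with earlier results of these data known. Genes were named where called outside the digestive enzymes, among the 15 largest positive and negative differences of probe sets naming 1 gene outside the exocrine lists, with arrays closer than 33.3% of the difference, and as up to 4 non-overlapping members of a list with the largest difference, beside its defining markers; others are marked. The pairing of replicate numbers was checked: deviations from the group means correlated at r = -0.34 between the untreated groups, so the numbers do not pair the arrays. Alternatives were leaving out each array, the untreated groups alone, a replicate block, an intensity trend, the LPE test (rewritten from its description), the methods' t-test, a filter on dim probe sets, repeated quantile normalization, median centring, means over a gene's probe sets and a stricter threshold. The fit was tested on simulated data.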

Additional observations from a re-analysis of the deposited data

How the results depend on the processing

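The total of 40 called probe sets ranged from 23 to 243 when each array was left out, and that outside the exocrine lists (3) from 0 to 209; the high ends are without diabetic replicate 1, with 205 probe sets lower. Probe sets at least 1 apart without overlap (1155) ranged from 259 to 3488. The LPE test called 215 in all and 171 outside the exocrine lists. The methods' t-test called 1 and 0 after adjustment (2667 unadjusted over all probe sets). Means over a gene's probe sets gave 25 and 0 called genes in limma (1207 unadjusted) and 148 genes at least 1 apart, 98 higher and 50 lower. An adjusted p under 0.001 left 20 and 0. Median centring left 1 outside the exocrine lists. The replicate block left 33 and 0 (2276 unadjusted). Since the numbers did not pair the arrays, a crossed block on the untreated groups alone was added after the data were seen, and it gave 53 and 9. The untreated groups alone gave 47 and 4, an intensity trend 49 and 5, and the filter on dim probe sets 45 and 3. The cause of these shifts was not tested. Of 193 named values, none called reversed under any alternative, but some that were not called did. Means over a gene's probe sets turned the sign of 3, and repeated quantile normalization that of 1. Without diabetic replicate 2, 7 values were weaker with their sign kept, and 182 of the other 186 kept theirs. Of 36 list medians, 35 kept their sign under repeated quantile normalization, and 35 under median centring; without diabetic replicate 2, 28 did. Signal over background limits dim probe sets.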
